A study of Mus musculus with 24 samples.

Results

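Mitosis and G2/M genes are the 44 genes followed here: cyclins and kinases that start mitosis, the proteins that build the spindle and attach chromosomes to it, the kinesin motors, the enzymes that end mitosis and the proteins that pinch the cell into daughters. They were chosen as the rows of the read count table whose gene symbol was on a list of such genes, by name, and all 44 of 44 were found among the 24015 genes of the table. All 44 also passed the filter on low counts that left 13816 genes for testing. The RNA came from mouse left ventricle at days 2, 4, 7 and 21 after an operation. In the treated mice this was transverse aortic constriction (TAC), which narrows the aorta so that the left ventricle pumps against a raised pressure, and in the controls a sham operation. There were 8 groups (sham and TAC at each of the 4 days) of 3 libraries, 24 in all, and no genotype, drug or other agent is named for any group. The labels do not give the strain, age or sex of the mice, nor whether the 3 replicates of a group were separate animals, so that the p-values may measure only the spread between these samples. In tissue RNA, fewer cells of a type and less RNA per cell cannot be told apart.

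A cell that is about to divide turns on a shared set of genes late in its cycle. Cyclins A and B activate the kinase Cdk1, Aurora and Polo-like kinases help to build the spindle, checkpoint kinases hold the cell in metaphase until every kinetochore is attached, and the anaphase-promoting complex then starts the destruction of cyclins and securin. Most heart muscle cells of adult mice no longer divide, whereas fibroblasts, macrophages and endothelial cells of the heart can. Promoters of many G2/M genes carry a cell cycle gene homology region (CHR), a short element near the start site at which the MuvB core of the DREAM and B-Myb complexes binds, often downstream of CCAAT boxes, which NF-Y binds.

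Because the members moved together, the promoters of 8 of them are shown, chosen to cover several roles, a member without the CHR letters and the member that behaved unlike the rest. The RefSeq promoter table (build GRCm38.p6) holds the sequence from 250 bases before to 50 after a gene's start, and 37 of the 44 members matched it by symbol. Each line gives the 110 bases before and the 20 after the start, 5′ to 3′ on the strand of the gene. Capitals mark the CHR letters: TTTGAA (read on the other strand as TTCAAA) and the variant TTCGAA, which reads alike on both strands. They also mark the box CCAAT, read on the other strand as ATTGG.
Cdk1: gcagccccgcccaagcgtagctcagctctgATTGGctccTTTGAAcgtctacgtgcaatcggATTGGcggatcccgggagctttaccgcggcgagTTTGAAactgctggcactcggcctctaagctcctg
Cdc20: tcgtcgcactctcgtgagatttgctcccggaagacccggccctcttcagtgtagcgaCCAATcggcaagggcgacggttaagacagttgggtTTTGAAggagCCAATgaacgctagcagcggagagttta
Ube2c: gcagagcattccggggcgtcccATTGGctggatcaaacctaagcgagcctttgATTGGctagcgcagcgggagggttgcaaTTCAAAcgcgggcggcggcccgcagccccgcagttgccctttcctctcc
Kif11: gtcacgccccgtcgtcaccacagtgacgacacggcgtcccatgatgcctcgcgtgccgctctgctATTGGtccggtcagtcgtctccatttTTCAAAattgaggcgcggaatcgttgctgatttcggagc
Ccnb2: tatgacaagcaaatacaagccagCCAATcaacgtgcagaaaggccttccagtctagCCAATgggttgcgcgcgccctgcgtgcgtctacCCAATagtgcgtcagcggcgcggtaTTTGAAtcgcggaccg
Bub1: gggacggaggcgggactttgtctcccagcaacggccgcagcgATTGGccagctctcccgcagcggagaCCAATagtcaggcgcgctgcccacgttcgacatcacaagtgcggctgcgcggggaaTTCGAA
Ccnb1: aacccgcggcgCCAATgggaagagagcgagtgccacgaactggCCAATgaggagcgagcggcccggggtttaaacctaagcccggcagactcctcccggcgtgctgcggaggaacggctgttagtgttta
Cenpf: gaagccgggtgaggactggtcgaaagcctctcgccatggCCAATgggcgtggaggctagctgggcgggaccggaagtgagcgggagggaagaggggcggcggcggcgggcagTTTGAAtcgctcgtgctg
The windows lie at chr10:69352893-69353022 on the minus strand (Cdk1), chr4:118437324-118437453 on the minus strand (Cdc20), chr2:164769819-164769948 on the plus strand (Ube2c), chr19:37376272-37376401 on the plus strand (Kif11) and chr9:70421535-70421664 on the minus strand (Ccnb2). The others lie at chr2:127831840-127831969 on the minus strand (Bub1), chr13:100786467-100786596 on the minus strand (Ccnb1) and chr1:189688067-189688196 on the minus strand (Cenpf).

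Over the 300-base promoters, 30 of the 37 matched members (81.1%) held CHR letters, against 21.7% of the 27025 genes of the promoter table (19.2% of its 32851 promoters). CCAAT or ATTGG stood in 28 members (75.7%), against 41.1% of all genes, and both motifs in 25 members (67.6%), against 8.6%. In 28 members a CHR match lay between 60 bases before and 50 after the start. The share of all genes with a match in this narrower window was not computed. The 7 matched members without these letters were Birc5, Ccnb1, Cenpe, Melk, Nek2, Nuf2 and Nusap1. All 7 were called higher after TAC at days 4 and 7, and the promoter of Cenpf, which was not, holds both motifs. A match describes letters only, since binding was not measured here. Whether either motif bears on the response to TAC was not tested. Other forms of the CHR were not searched for, so that a member without these letters may still hold one.

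Depth ran from 10.7 to 17.6 M reads per library, where M stands for 1000000. Levels are given as counts per M reads (CPM), scaled between libraries by TMM (trimmed mean of M-values). Effects are the log2 of the TAC level divided by the sham level, ± standard error, from edgeR's quasi-likelihood test. Adjusted p-values (Benjamini-Hochberg) cover all 13816 genes, and the threshold was 0.05. Ventricular muscle markers summed to 119763 to 197501 CPM over the sham and TAC libraries together, with all 9 of them among the genes tested. TAC replicate 1 of day 2 stood apart: it held 2106 CPM of Esr1, the estrogen receptor alpha, where no other library had more than 11.0. Myl7, a myosin light chain of the atrium, was over 30 CPM in 4 libraries (sham day 2 replicates 2 and 3, TAC day 7 replicate 1 and sham day 21 replicate 2). The calls of members at each day are given with and without these libraries. The exception is the calls of day 2 without those high in Myl7, where only sham replicate 1 was left. Other results, such as those of the marker lists, are mostly given with all libraries.

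In every TAC library the members lay, in the median, above the mean of the sham libraries of the same day. The median fold over the sham mean was 1.80, 4.54 and 7.54 in the 3 TAC libraries of day 2, 6.47, 5.53 and 15.6 at day 4, 7.01, 7.11 and 11.2 at day 7, and 2.13, 1.57 and 1.85 at day 21. In the sham libraries it ran from 0.695 to 1.31. The TAC libraries of a day differed widely: replicate 3 was the highest of its group in 43 of 44 members at day 2, in 44 at day 4 and in 42 at day 7. Replicate 1 of day 2, the library with the high Esr1, was the lowest of its group in 43 members and the highest in Cenpf. These libraries are few and the same libraries carry all members, so that 44 genes are not 44 independent measurements.

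**Figure D1:**
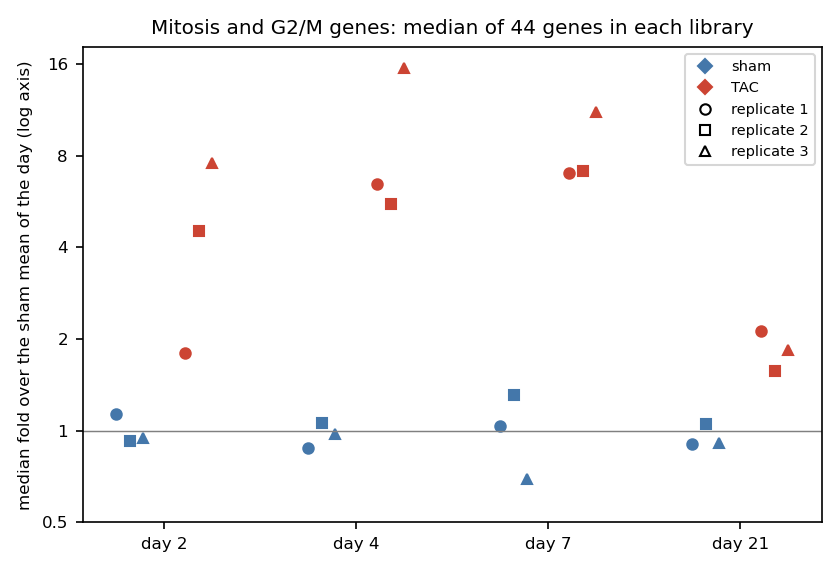
Median over the 44 genes of the fold over the sham mean of the same day (log axis), one point per library, blue for sham and red for TAC, with the marker shape for the replicate. All 12 TAC points lie above the sham points, with the largest median in replicate 3 of day 4 (15.6) and values from 1.57 to 2.13 at day 21.

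After TAC, 33 of 44 members were called higher at day 2 (3.73% of all genes tested were), 43 at day 4 (14.4%), 43 at day 7 (13.1%) and 0 at day 21 (0.622%). None was called lower at any day (0.854%, 10.1%, 10.0% and 0.470% of all genes). The median log2 fold change of the members was 2.24, 3.18, 3.13 and 0.96 at days 2, 4, 7 and 21, where that of all genes tested was between -0.01 and 0.01. All 3 TAC libraries lay above all 3 sham libraries in 30 members at day 2 (11.2% of all genes tested), in 43 at day 4 (21.5%), in 43 at day 7 (20.5%) and in 24 at day 21 (11.9%). The member that was not called at days 4 and 7 was Cenpf.

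The calls of day 2 depended on single libraries, unlike those of days 4 and 7. Without TAC replicate 1 of that day 43 members were called, without TAC replicate 2 it was 25, and without TAC replicate 3 it was 0, with 35 at an unadjusted p under 0.05. The calls over all genes moved with them, to 8.87%, 2.17% and 0.0644% higher. Leaving out sham replicate 1, 2 or 3 gave 11, 0 and 7 calls, with 43, 40 and 42 at an unadjusted p under 0.05, where 0.658%, 0.0572% and 0.508% of all genes were called higher. Leaving out the 4 libraries high in Myl7 takes away sham replicates 2 and 3, so that only sham replicate 1 was left at day 2. The calls of that fit at day 2 are therefore not given. With the 6 libraries of the day alone edgeR called 0 members (36 at an unadjusted p under 0.05). In that fit 0 genes of the whole table were called higher at day 2 (of 13275 tested). On all libraries DESeq2 called 39 at day 2, limma voom 1, and limma on the authors' RPKM 14. Here and below, the shares of all genes called by DESeq2 and limma are not given, so that these counts cannot be set against the whole table. The same holds for the unadjusted counts with libraries left out or with those of the day alone. At day 4 the count was 40 to 43 whichever library was left out, at day 7 it was 43 throughout, and both were 43 without the libraries high in Myl7. The direction at day 2 was upward for 43 of 44 members, the exception again being Cenpf. In the fit of all libraries, 43 members and 20% of all genes tested (in either direction) had an unadjusted p under 0.05.

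**Figure D2:**
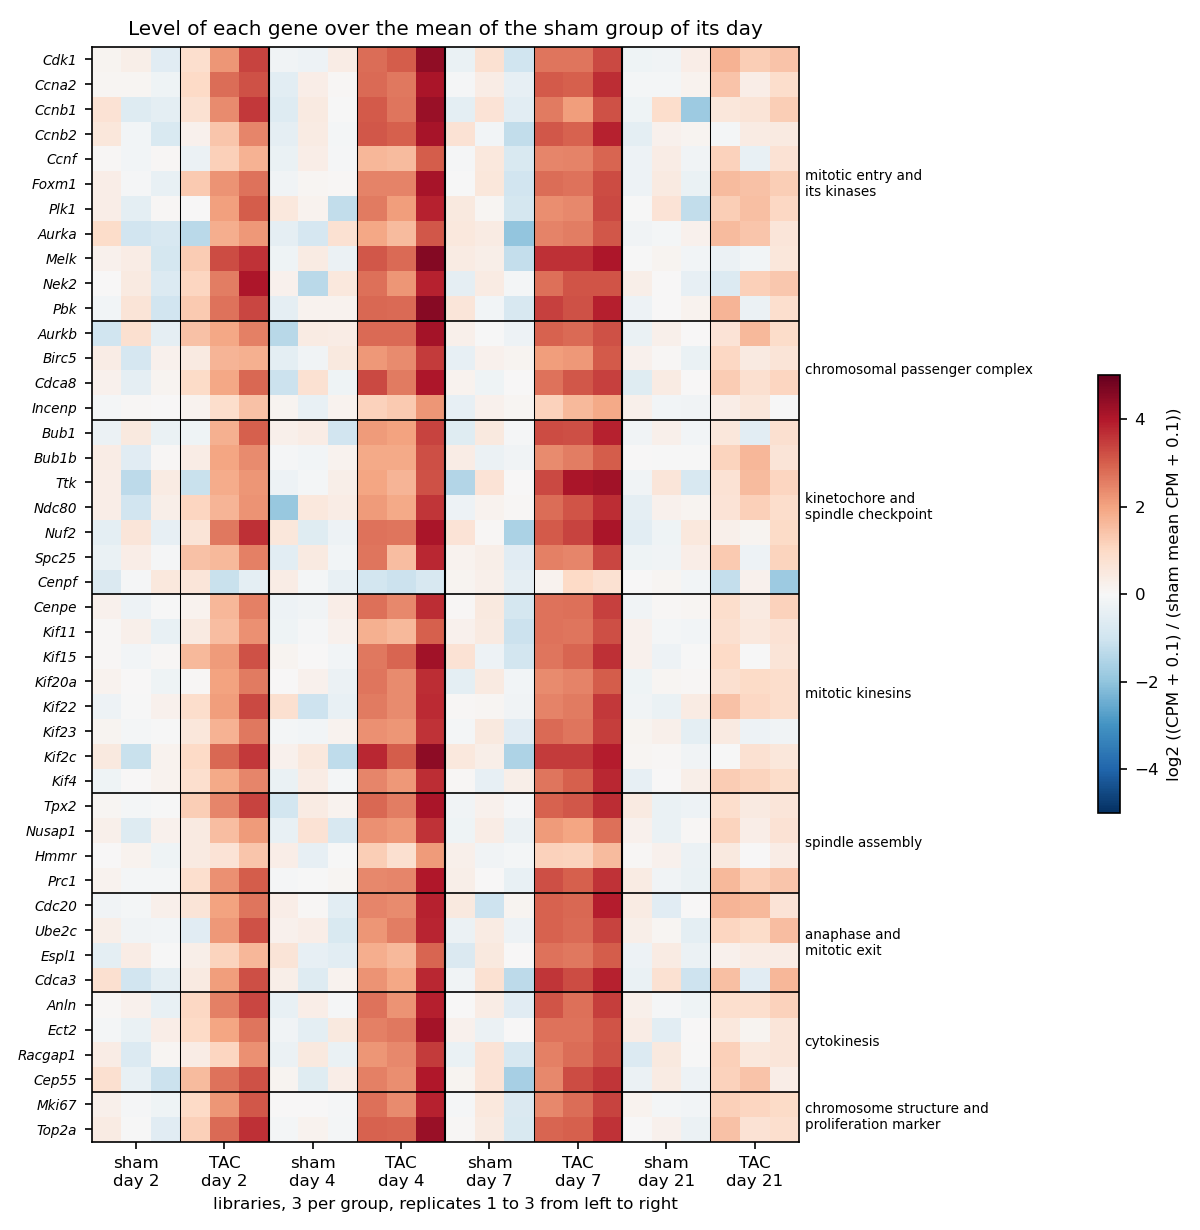
Log2 of each gene's CPM over the mean of the sham group of its day (0.1 CPM added to both), with the 44 genes in rows by role and the 24 libraries in columns, replicates 1 to 3 from left to right. The TAC columns of days 4 and 7 are red in every row but Cenpf, which is blue at day 4 and pale red at day 7, the first TAC column of day 2 is pale, and the TAC columns of day 21 are pale red with scattered blue cells.

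Of the 11 genes of mitotic entry and its kinases, 8 were called higher at day 2 and all 11 at days 4 and 7, with medians of 2.66, 3.40 and 2.99. Cdk1, the kinase that drives entry into mitosis, had 0.658, 0.726 and 0.358 CPM in the sham libraries of day 2 and 1.13, 3.01 and 7.02 after TAC. At day 4 it had 0.528, 0.487 and 0.803 in sham and 4.74, 5.63 and 15.0 in TAC libraries, and at day 7 1.18, 2.59 and 0.710 in sham and 10.1, 10.1 and 15.6 after TAC. At day 21 the values were 0.801, 0.846 and 1.22 in sham and 3.47, 2.36 and 2.73 after TAC. The groups did not overlap at any day, and all TAC libraries of days 4 and 7 lay above all 12 sham libraries. The log2 fold changes of Cdk1 were 2.67 ± 0.59 (adjusted p = 0.0157) at day 2, 3.79 ± 0.60 (adjusted p = 0.000384) at day 4, 2.99 ± 0.52 (adjusted p = 0.000734) at day 7 and 1.56 ± 0.59 (adjusted p = 0.178) at day 21.

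The partners of Cdk1 moved with it. Ccnb1, cyclin B1, activates Cdk1, and its promoter held none of the CHR letters searched for. It went from 0.176, 0.487 and 0.321 CPM in sham to 3.46, 2.64 and 8.40 after TAC at day 4 (3.84 ± 0.72, adjusted p = 0.00119). At day 7 it went from 0.553, 1.38 and 0.532 to 5.43, 3.85 and 8.23 (2.82 ± 0.63, adjusted p = 0.00419). Ccna2, cyclin A2, had effects of 2.66 ± 0.49, 3.38 ± 0.46 and 3.32 ± 0.45 at days 2, 4 and 7. Ccnb2, cyclin B2, was not called at day 2 (1.77 ± 0.54, adjusted p = 0.0641) and was at day 4 (3.72 ± 0.55, adjusted p = 0.000268), as was Ccnf, the F-box cyclin (1.21 ± 0.50, adjusted p = 0.175 and 2.35 ± 0.47, adjusted p = 0.00181). Whether the effect of TAC on Ccnb2 differed between days 4 and 2 was tested and did not pass (1.95 ± 0.81, adjusted p = 0.532).

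Foxm1, the transcription factor that drives many G2/M genes, had 2.68, 4.06 and 1.33 CPM in the sham libraries of day 7 and 19.2, 18.4 and 26.6 after TAC (2.99 ± 0.42, adjusted p = 0.000161). At day 21 it was still without overlap, at 1.53, 2.54 and 1.45 in sham and 5.70, 5.23 and 4.42 after TAC, but did not pass (1.49 ± 0.47, adjusted p = 0.113, the smallest adjusted p of the members at that day). Plk1, the Polo-like kinase, had 0.724, 0.363 and 0.574 CPM in sham and 0.563, 2.60 and 5.16 after TAC at day 2, where TAC replicate 1 lay within the sham range (2.36 ± 0.66, adjusted p = 0.0441). By day 4 its TAC libraries were at 4.81, 3.34 and 11.4 against 1.06, 0.812 and 0.241 (3.22 ± 0.64, adjusted p = 0.00173).

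At days 4 and 7 the largest effects of the 11 were those of Melk and Pbk, kinases with few reads in the sham heart. Melk, a kinase of dividing cells, went from 0.176, 0.325 and 0.161 CPM to 2.64, 2.16 and 7.59 at day 4 (4.19 ± 0.65, adjusted p = 0.000368). In the libraries of day 7 Melk went from 0.474, 0.432 and 0.0887 to 5.31, 5.37 and 7.09 (4.10 ± 0.61, adjusted p = 0.000199). At day 21 its TAC libraries, at 0.535, 0.611 and 1.03, overlapped the sham libraries, at 0.655, 0.752 and 0.612 (0.14 ± 0.65, adjusted p = 0.94). Pbk, a mitotic protein kinase, went from 0.176, 0.325 and 0.321 to 2.64, 2.57 and 8.56 CPM at day 4 (4.03 ± 0.66, adjusted p = 0.000519).

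Nek2, a kinase of centrosome separation, had the largest effect of any member at day 2 (4.11 ± 0.95, adjusted p = 0.0187), on 3 reads in the sham libraries against 64 after TAC. Its libraries were at 0.0658, 0.121 and 0 CPM in sham and 0.241, 0.867 and 2.58 after TAC, without overlap. The ratio of these reads, per scaled library size, was 20.5, with an exact 95% interval of 6.70 to 102 that covers counting error only. In the authors' RPKM (reads per kilobase and M reads) the fold of its means was 2.21 at day 2, against 19.8 in CPM, and 5.18 against 9.39 at day 7. Of the 44 members, 6 had a fold in RPKM lower than that in CPM by over 1.5 times at day 2 (Ccna2, Aurka, Nek2, Spc25, Kif15 and Prc1), 5 at day 4, 1 at day 7 (Nek2) and 0 at day 21. Aurka, Aurora kinase A of the centrosome, was not called at day 2 (1.67 ± 0.72, adjusted p = 0.193) and was at day 4 (2.55 ± 0.73, adjusted p = 0.0156) and day 7 (2.88 ± 0.70, adjusted p = 0.00734).

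The chromosomal passenger complex corrects wrong attachments of chromosomes to the spindle, and its 4 genes rose to different degrees. Aurkb, Aurora kinase B, its enzyme, had 0, 0.244 and 0.241 CPM in the sham libraries of day 4 and 1.76, 1.74 and 4.55 after TAC (3.96 ± 0.61, adjusted p = 0.000364). Cdca8, borealin, had effects of 2.38 ± 0.51, 3.76 ± 0.55 and 3.28 ± 0.49 at days 2, 4 and 7, all called. Birc5, survivin, had 1.56 ± 0.46 (adjusted p = 0.054), 2.96 ± 0.46 and 2.62 ± 0.44, called at days 4 and 7.
Incenp, the scaffold of the complex, started from a higher level and moved less. It had 6.86, 4.71 and 6.91 CPM in sham and 13.9, 15.6 and 28.4 after TAC at day 4 (1.65 ± 0.30, adjusted p = 0.000908). The libraries of day 7 had 5.29, 8.21 and 7.54 in sham and 15.6, 22.0 and 26.1 after TAC (1.60 ± 0.30, adjusted p = 0.00117). At both days the groups did not overlap. Its effects at days 2 (0.96 ± 0.30, adjusted p = 0.0732) and 21 (0.30 ± 0.31, adjusted p = 0.65) did not pass.

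Among the 7 kinetochore and checkpoint genes, 5 were called at day 2 and 6 at days 4 and 7. Bub1, a checkpoint kinase of the kinetochore, had 0.527, 0.968 and 0.502 CPM in the sham libraries of day 2 and 0.563, 2.54 and 5.95 after TAC (2.19 ± 0.60, adjusted p = 0.0402), so that TAC replicate 1 lay within the sham range. At day 7 it had 0.395, 0.951 and 0.621 in sham and 7.08, 6.97 and 10.8 after TAC (3.66 ± 0.61, adjusted p = 0.000564). Ttk, the kinase Mps1 that starts checkpoint signalling, had the largest effect of any member at day 7, from 0, 0.346 and 0.177 to 2.62, 4.57 and 4.94 CPM (4.50 ± 0.78, adjusted p = 0.000701), and was not called at day 2 (1.90 ± 0.74, adjusted p = 0.151). Without TAC replicate 3 of day 4 its effect at day 4, 2.67 ± 0.68 (adjusted p = 0.00778), no longer passed (2.05, adjusted p = 0.0716). Bub1b, the checkpoint protein BubR1, had effects of 1.90 ± 0.45, 2.56 ± 0.43 and 2.73 ± 0.43 at days 2, 4 and 7. Ndc80, Nuf2 and Spc25, of the Ndc80 complex, which grips microtubules, were called at the same 3 days. Ndc80 itself had 1.94 ± 0.54, 2.91 ± 0.53 and 3.44 ± 0.52. Its partner Nuf2 had 3.08 ± 0.72, 3.49 ± 0.63 and 3.70 ± 0.63, and Spc25 had 2.10 ± 0.55, 3.08 ± 0.52 and 2.96 ± 0.52.

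All 8 mitotic kinesins were called at days 2, 4 and 7, with medians of 1.99, 3.09 and 3.07. Kif11, the motor that pushes the spindle poles apart, had 2.24, 2.60 and 1.65 CPM in sham and 2.98, 6.53 and 11.1 after TAC at day 2 (1.67 ± 0.42, adjusted p = 0.0258). At day 4 the libraries were at 2.99, 3.33 and 4.01 and 12.0, 10.7 and 27.9 (2.29 ± 0.40, adjusted p = 0.000658), and at day 7 at 3.32, 3.98 and 1.33 and 19.7, 18.8 and 27.3 (2.92 ± 0.41, adjusted p = 0.000148). Its groups did not overlap at these days.
Kif2c, which takes microtubules apart at the centromere, had the largest effect of any member at day 4, from 0.176, 0.244 and 0 to 3.19, 1.88 and 5.29 CPM (4.56 ± 0.74, adjusted p = 0.00048). It was the member with the lowest mean RPKM in each of the 4 sham groups. Kif23, a motor of the central spindle, went from 2.13, 3.20 and 1.51 to 17.0, 15.2 and 26.0 CPM at day 7 (3.09 ± 0.44, adjusted p = 0.000157). At day 21 it had 3.20, 3.48 and 2.07 in sham and 4.01, 2.44 and 2.58 after TAC, with overlap (0.05 ± 0.47, adjusted p = 0.972). At day 4 the other 5 kinesins, Cenpe, Kif15, Kif20a, Kif22 and Kif4, had effects from 3.02 ± 0.42 (Kif4) to 3.59 ± 0.51 (Kif15).

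Of the 4 spindle assembly genes, 3 were called at day 2 and 4 at days 4 and 7. Tpx2, which activates Aurora kinase A on the spindle, had effects of 2.72 ± 0.49 (adjusted p = 0.00795) at day 2 and 3.40 ± 0.47 (adjusted p = 0.000178) at day 4. Prc1, which bundles microtubules between the separating chromosomes, had 2.40 ± 0.48, 3.22 ± 0.45 and 3.34 ± 0.44 at days 2, 4 and 7. Nusap1, a microtubule-binding protein of the spindle, had 1.61 ± 0.46 (adjusted p = 0.0495), 2.93 ± 0.47 and 2.35 ± 0.43. Hmmr, a microtubule-binding protein that is also a hyaluronan receptor, had the smallest effect of the members called at days 4 and 7. It had 7.47, 4.39 and 5.70 CPM in sham and 14.0, 10.2 and 26.1 after TAC at day 4 (1.53 ± 0.30, adjusted p = 0.00145), and at day 2 did not pass (0.92 ± 0.30, adjusted p = 0.0816).

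The 4 genes of anaphase and mitotic exit were all called at days 4 and 7, and Cdc20 and Ube2c also at day 2. Cdc20, the activator of the anaphase-promoting complex, had 0.947, 0.259 and 0.710 CPM in sham and 5.62, 5.37 and 11.2 after TAC at day 7 (3.51 ± 0.55, adjusted p = 0.000301). At day 21 its TAC libraries, at 2.67, 2.53 and 1.25, lay above the sham libraries, at 1.02, 0.470 and 0.765, and the effect did not pass (1.46 ± 0.57, adjusted p = 0.189). Ube2c, the ubiquitin-conjugating enzyme of the complex, had effects of 2.44 ± 0.62, 3.19 ± 0.61 and 3.17 ± 0.58 at days 2, 4 and 7. Espl1, separase, which cuts the cohesin ring, was not called at day 2 (1.20 ± 0.41, adjusted p = 0.105) and was at days 4 (2.36 ± 0.42, adjusted p = 0.000772) and 7 (2.93 ± 0.42, adjusted p = 0.00018). Cdca3, which helps to degrade Wee1, missed the threshold at day 2 (2.57 ± 0.74, adjusted p = 0.05 after rounding) and passed at day 7 (3.86 ± 0.78, adjusted p = 0.00196).

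The 4 cytokinesis genes were called at days 4 and 7, and 3 of them at day 2. Anln, anillin, which organises the contractile ring, had effects of 2.65 ± 0.49, 3.17 ± 0.46 and 3.18 ± 0.45 at days 2, 4 and 7. Ect2, the exchange factor that activates RhoA there, had 2.20 ± 0.48, 3.48 ± 0.48 and 2.94 ± 0.44. Cep55, a protein of the final cut, had 3.02 ± 0.69, 3.36 ± 0.61 and 3.28 ± 0.58. Racgap1, the partner of Kif23 in the centralspindlin complex, went from 1.41, 2.52 and 1.37 to 8.47, 9.67 and 21.2 CPM at day 4 (2.89 ± 0.49, adjusted p = 0.000584). At day 2 it had 2.37, 1.09 and 1.94 CPM in sham and 2.33, 3.87 and 9.21 after TAC. There TAC replicate 1 lay within the sham range, and the effect was not called (1.54 ± 0.48, adjusted p = 0.0741).

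Mki67, the protein that coats mitotic chromosomes and is used as a marker of proliferation, and Top2a, the topoisomerase that untangles them, had the smallest adjusted p of the members at day 2. Mki67 had 21.5, 17.3 and 15.3 CPM in the sham libraries of day 2 and 36.2, 84.5 and 157 after TAC (2.36 ± 0.42, adjusted p = 0.00769), without overlap. In TAC libraries it rose to 198, 152 and 419 at day 4 and 222, 290.1 and 437 at day 7, against 29.7, 29.9 and 28.5 and 40.4, 60.2 and 25.6 in sham. At day 21 it was at 37.2, 30.8 and 29.8 in sham and 74.4, 68.7 and 63.8 after TAC (1.08 ± 0.40, adjusted p = 0.171), so that the TAC libraries still lay above those of sham but below every TAC library of days 4 and 7. Top2a had 6.55, 8.65 and 3.73 CPM in sham and 48.2, 50.9 and 78.9 after TAC at day 7 (3.23 ± 0.46, adjusted p = 0.000175).

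**Figure D3:**
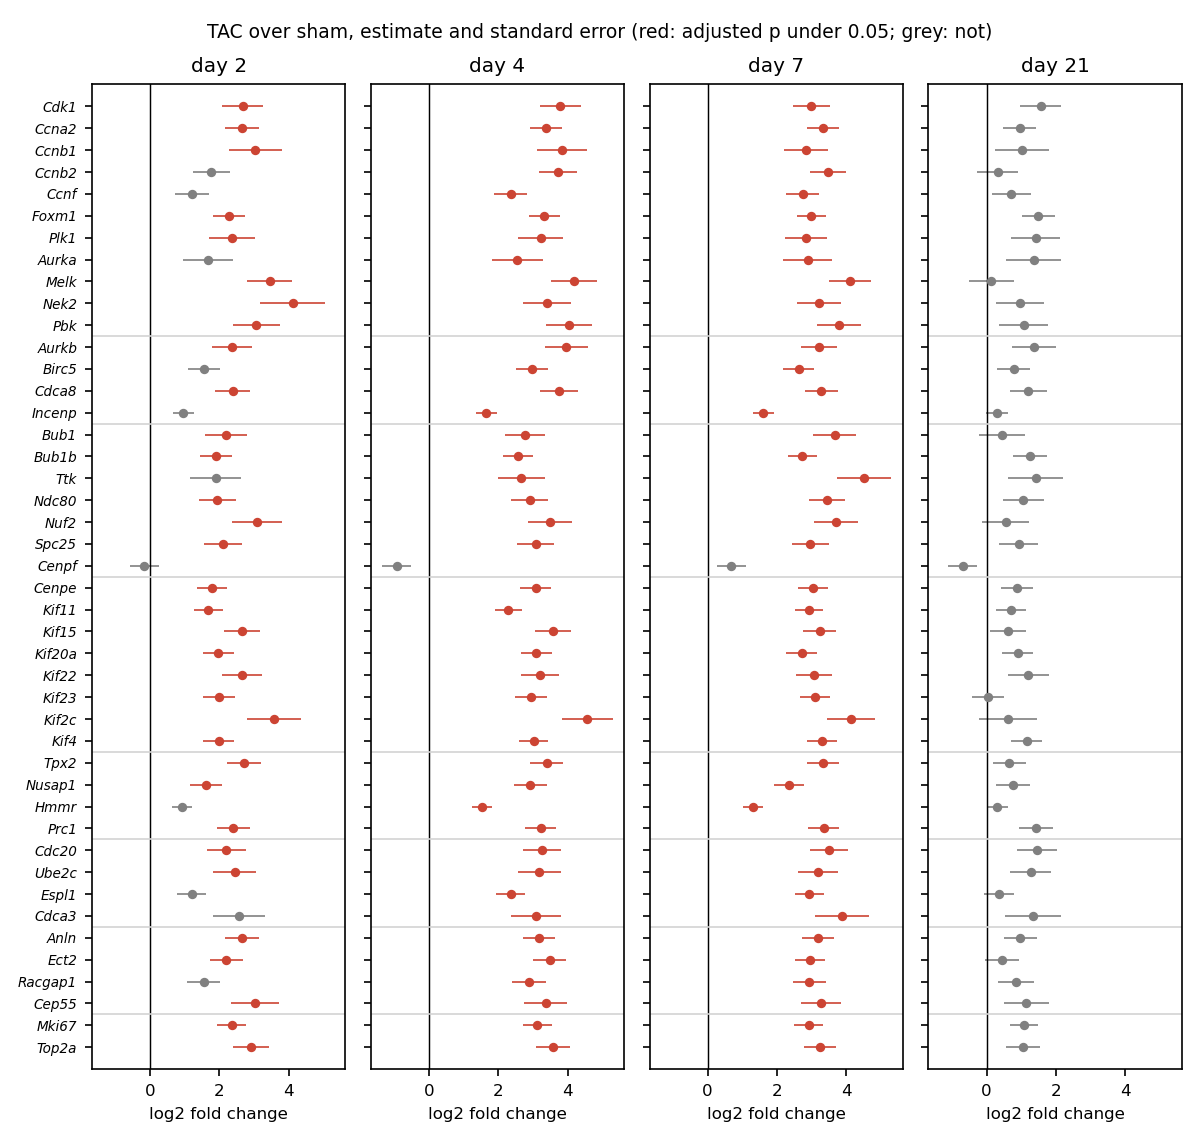
Log2 fold change of TAC over sham for each of the 44 genes at each day, with its standard error from edgeR, in red where the adjusted p is under 0.05 and in grey where it is not. At days 4 and 7 every gene but Cenpf is red, at day 2 33 are, and at day 21 none is, with 43 of 44 estimates to the right of 0.

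Cenpf, a large protein of the kinetochore and the nuclear matrix, was the exception. It had 54.3, 84.8 and 127 CPM in the sham libraries of day 2 and 136, 41.0 and 62.4 after TAC, with overlap. At day 4 it had 218, 157 and 130.2 in sham and 89.2, 80.7 and 95.5 after TAC, so that all TAC libraries lay below all sham libraries, the reverse of the other 43. At day 7 it had 67.8, 73.5 and 45.3 in sham and 70.3, 123 and 106 after TAC, and at day 21 102, 108 and 90.7 in sham and 43.8, 115 and 28.4 after TAC, both with overlap. None of its effects passed: -0.16 ± 0.42 (adjusted p = 0.871) at day 2, -0.93 ± 0.42 (adjusted p = 0.106) at day 4, 0.68 ± 0.42 (adjusted p = 0.244) at day 7 and -0.69 ± 0.42 (adjusted p = 0.41) at day 21. The effect of day 2 turned upward without sham replicate 3 (0.19) and without TAC replicate 2 (0.16). It also did so without the libraries high in Myl7 (0.55), where only sham replicate 1 was left at that day. Over the 24 libraries the log2 CPM of Cenpf had a Pearson correlation of -0.12 with the mean of the other members, where each other member had 0.90 to 0.99. These correlations are a description over libraries that share groups and depth.

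The level of Cenpf was not low: its reads numbered 385 to 2480 per library. In the authors' RPKM, which allows levels of different genes to be compared, Cenpf was the highest of the 44 members in each sham group, with means of 7.29 ± 2.90 (SD, n = 3) at day 2, 14.5 ± 5.07 at day 4, 5.45 ± 1.41 at day 7 and 8.76 ± 1.25 at day 21. Mki67 was the highest in each TAC group, at 8.81 ± 5.76, 24.4 ± 13.2, 31.0 ± 10.6 and 6.67 ± 0.57 RPKM at days 2, 4, 7 and 21. Next to Cenpf in the sham group of day 2 came Incenp (2.03 ± 0.12), Hmmr (1.87 ± 0.27) and Mki67 (1.74 ± 0.32), which do not differ beyond their spread, and at the low end Kif2c (0.050 ± 0.026), Melk (0.081 ± 0.028) and Cep55 (0.091 ± 0.080). Incenp and Hmmr, high in sham hearts, had the smallest effects of the members called at days 4 and 7. In the TAC groups of days 4 and 7 Mki67 was followed by Ccna2, Top2a, Ube2c and Prc1, at 8.04 to 11.9 RPKM. Looked up after the values of Cenpf were seen, the 5 genes whose log2 CPM followed it most closely over the 24 libraries were Lrrc4b (Pearson correlation 0.79), Cep70 (0.77), Slc7a1 (0.76), Cep128 (0.75) and Apbb2 (0.74).

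**Figure D4:**
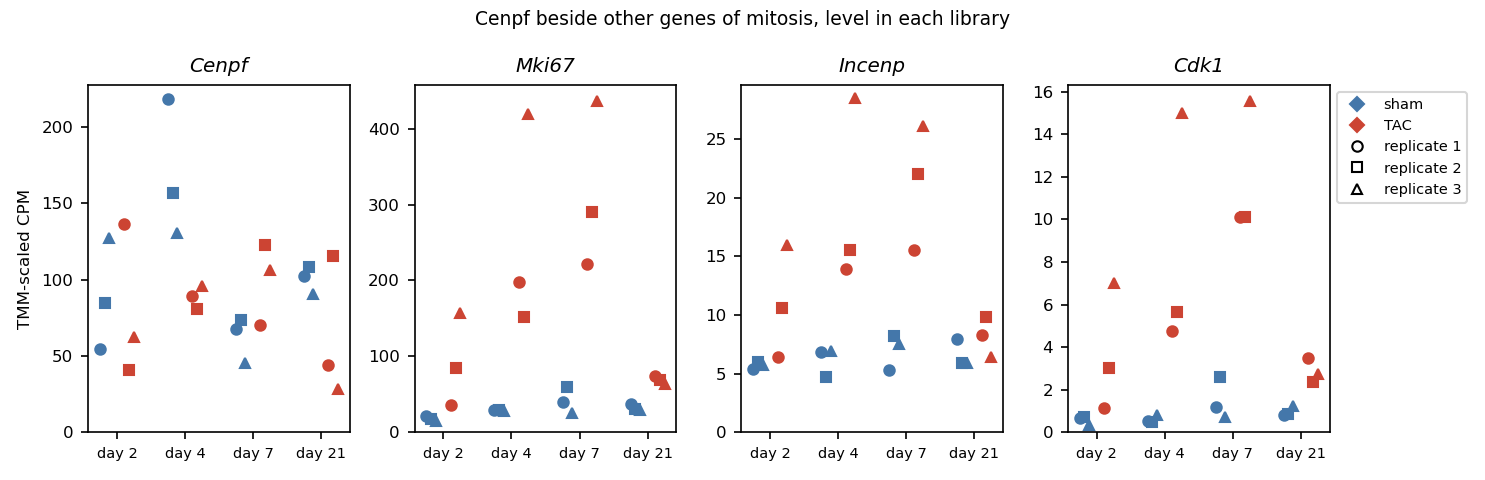
TMM-scaled CPM of Cenpf, Mki67, Incenp and Cdk1 in each library by day, blue for sham and red for TAC, marker shape for the replicate, each panel with its own axis from 0. Cenpf shows no gap between the colours except at day 4, where the sham points (130.2 to 218 CPM) lie above the TAC points (80.7 to 95.5 CPM), while the other genes show the TAC points of days 4 and 7 above sham.

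By day 21 the members were closer to sham. edgeR called 0 of 44, with 11 at an unadjusted p under 0.05, all higher (17.4% of all genes tested had such a p in either direction). DESeq2 called 2, limma voom 0 and limma on RPKM 0, and edgeR on the 6 libraries of the day 1. Without the libraries high in Myl7 edgeR called 0, with 8 at an unadjusted p under 0.05. The estimate was positive for 43 of 44 members, and the largest were those of Cdk1 (1.56 ± 0.59), Foxm1 (1.49 ± 0.47) and Cdc20 (1.46 ± 0.57). The smallest of the positive ones, those of Kif23 and Melk, turned negative when single libraries of the day were left out (Kif23 -0.15 without sham replicate 3 and -0.21 without TAC replicate 1, Melk -0.22 without TAC replicate 3).

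The effect of TAC was also compared between days. From day 7 to day 21 it shrank in all 44 members by estimate, with a median difference of -2.10 and 40 members at an unadjusted p under 0.05 (11.4% of all genes tested in either direction). After adjustment edgeR called 0 (of all genes tested 0.0362% were called lower and 0.0290% higher). The smallest adjusted p was that of Kif23 (-3.04 ± 0.64, adjusted p = 0.0969). DESeq2 called 9, limma voom 0 and limma on RPKM 0. Without TAC replicate 3 of day 4, edgeR called 5. From day 4 to day 21 it called 0 (0.00724% lower), with 38 at an unadjusted p under 0.05, all lower (10.9% of all genes tested in either direction). DESeq2 called 6 there. Over all 4 days at once edgeR called 0 (0.369%), with 30 at an unadjusted p under 0.05 (13% of all genes tested). DESeq2 called 9 there and both limma fits 0. Without 1 library the edgeR count over all days ran from 0 to 3, the latter without TAC replicate 1 of day 2.

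Between days 2 and 4 and between days 4 and 7 there was less to see. edgeR called 0 members with a larger effect at day 4 than at day 2 (0% of all genes), with a median difference of 0.87. Of the members 3 (Ccnb2, Birc5 and Cenpe) had an unadjusted p under 0.05, a smaller share than over all genes tested (8.79%). Between days 7 and 4 edgeR called 0 (0.0434% higher and 0.00724% lower). There 1 had an unadjusted p under 0.05 (7.61% of all genes tested), Cenpf, whose estimate was higher at day 7 (1.61 ± 0.59, adjusted p = 0.492). DESeq2 and both limma fits also called 0 in these comparisons. The TAC mean was highest at day 7 in 42 members and at day 4 in Spc25 and Kif20a, while the log2 fold change was largest at day 4 in 26, at day 7 in 17 and at day 2 in 1 (Nek2). No member other than Cenpf had an unadjusted p under 0.05 between days 4 and 7. Among the sham days edgeR, DESeq2 and both limma fits called 0 members (0.680% of all genes by edgeR). By edgeR 2 had an unadjusted p under 0.05 (Cenpf, adjusted p = 0.38, and Nek2, adjusted p = 0.504), a smaller share than over all genes tested (9.42%).

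Other genes of mitosis were counted over a list of 106, of which 105 were tested (not Ccnb3). Higher after TAC were 22 at day 2 (3.73% of all genes tested), 60 at day 4 (14.4%), 61 at day 7 (13.1%) and 0 at day 21 (0.622%). Lower were 0, 1, 3 and 1 (0.854%, 10.1%, 10.0% and 0.470% of all genes). The count higher at day 2 was 0 to 40 when 1 library was left out (0 without TAC replicate 3 or sham replicate 2, 40 without TAC replicate 1). At day 21, where edgeR called 0 higher, 17 had an unadjusted p under 0.05 in that direction and 3 in the other. Of all genes tested 17.4% had such a p in either direction. DESeq2 put 2 of the list past the threshold as higher at day 21. The medians of 0.62, 1.27, 1.46 and 0.24 were below those of the members. Casc5, the kinetochore scaffold Knl1, had 1.41 ± 0.35 CPM (SD, n = 3) in sham and 5.95 ± 2.63 after TAC at day 2 (2.08 ± 0.40). At day 7 it had 1.84 ± 0.51 and 22.6 ± 5.59 (3.61 ± 0.39, adjusted p = 2.04e-05). Zwilch, of the RZZ checkpoint complex, rose at day 2 (2.81 ± 0.57). Ckap2, a spindle protein, rose by 4.09 ± 0.48 at day 4 and 3.18 ± 0.43 at day 7. Mastl, the Greatwall kinase, rose by 3.15 ± 0.42 at day 4 and Iqgap3, a scaffold of cytokinesis, by 3.59 ± 0.47 at day 7. At day 21 Knstrn, a spindle protein (1.77 ± 0.45, adjusted p = 0.0549), and Iqgap3 (1.92 ± 0.49, adjusted p = 0.0593) were nearest to the threshold among those higher.

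A few of these other genes fell. Pttg1, securin, which holds separase inactive, went from 42.2 ± 1.30 CPM (SD, n = 3) in sham to 27.0 ± 4.55 after TAC at day 4 (-0.65 ± 0.17, adjusted p = 0.0109). At day 7 it went from 40.5 ± 3.86 to 25.7 ± 4.95 (-0.66 ± 0.18, adjusted p = 0.0124). Espl1, separase itself, rose at both days. Anapc11 (-0.38 ± 0.08) and Cdc26 (-0.31 ± 0.11), subunits of the anaphase-promoting complex, fell at day 7. Sgol2, shugoshin 2, which protects cohesin at centromeres, fell at day 21 (-0.64 ± 0.15, adjusted p = 0.0441). Over the 22 genes of that complex and of cytokinesis the median was 0.07, 0.13, 0.21 and 0.06 at days 2, 4, 7 and 21.

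Outside these lists, the genes whose log2 CPM followed the mean of the 44 members most closely over the 24 libraries were Diap3, a formin that builds actin filaments (Pearson correlation 0.99), the histone genes Hist1h2ak (0.98) and Hist1h1d (0.97), Lmnb1, lamin B1 of the nuclear envelope (0.98), and Tagln2, an actin-binding protein (0.97). Diap3 had 0.703, 0.975 and 0.803 CPM in sham and 6.51, 5.29 and 20.5 after TAC at day 4 (3.70 ± 0.56, adjusted p = 0.000305). Tagln2, the least changed of the 5 there, had an effect of 1.31 ± 0.24 at that day.

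Markers of fibroblasts and of macrophages and monocytes rose with the members, unlike several other marker lists. The part of any cell type in the result was not tested. Of 10 fibroblast markers, edgeR called 0, 6, 7 and 1 higher at days 2, 4, 7 and 21 (5 at an unadjusted p under 0.05 at day 2), and their summed level was 1402 to 1968 CPM in the 12 sham libraries, 1743 to 3164 in TAC libraries at day 2, 4396 to 8810 at day 4, 1991 to 9226 at day 7 and 1405 to 4605 at day 21. Of 11 macrophage and monocyte markers, it called 5, 11, 10 and 0 higher (6 at an unadjusted p under 0.05 at day 21), and their sum was 238 to 368 CPM in sham and 358 to 633, 656 to 868, 361 to 580 and 269 to 380 in TAC libraries at the same days. The macrophage sums of the sham libraries of days 7 and 21 were 285 to 297 and 238 to 250 CPM, below those of all TAC libraries of the same day. The 5 macrophage calls of day 2 were lost with the libraries of the day alone, where edgeR called 0 genes higher. Of 9 endothelial markers, 3, 3 and 1 were called lower at days 2, 4 and 7 and 2 higher at day 7. At day 21, 4 were higher and 0 lower at an unadjusted p under 0.05. The endothelial sum was 1238 to 1312 CPM in sham and 980 to 1051 in TAC libraries at day 2, and 1188 to 1285 and 1034 to 1170 at day 4. At day 7 it was 1125 to 1172 in sham and 1232 to 1489 after TAC, and at day 21 1167 to 1254 and 1257 to 1432. Of 8 markers of pericytes and smooth muscle, edgeR called 1, 3 and 1 higher at days 2, 4 and 7 and 2 and 1 lower at days 4 and 7. Their sum was 1650.2 to 1991 CPM in sham and 1387 to 2098, 1531 to 1572, 1394 to 1637 and 1561 to 1730.5 in TAC libraries at days 2, 4, 7 and 21. The sum of 9 ventricular muscle markers was 173093 to 197501 CPM in sham and 132254 to 169346 in TAC libraries at day 4. At day 7 it was 186794 to 188945 and 119763 to 179595, and at days 2 and 21 the groups overlapped. Lower at an unadjusted p under 0.05 were 1, 5, 6 and 1 of them at days 2, 4, 7 and 21, and higher 0. Of all genes tested 20%, 37.8%, 37.2% and 17.4% had such a p in either direction. The sum of 8 of 9 lymphocyte markers was 1.30 to 4.46 CPM, with Cd3e, Cd3g, Cd3d, Ms4a1 and Nkg7 below the filter, and that of neutrophil markers 5.41 to 25.3 CPM. Hba-a1 and Hbb-bs, the globins that mark red blood cells, were listed at 0 in every library.

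Single libraries differed in how far the markers and the members moved. In TAC replicate 2 of day 7 the fibroblast sum, 1991 CPM, was close to the highest sham library (1968). Its macrophage sum, 361 CPM, lay above the sham libraries of day 7 (285 to 297 CPM), though within the range of the sham libraries of all days. The median fold of the members in this library was 7.11. In TAC replicate 1 of day 7, a library high in Myl7 (60.6 CPM), the fibroblast sum was 9226 CPM and the median fold 7.01. The marker results are not given without the libraries high in Myl7. The Pearson correlation of the mean log2 CPM of the members with the log2 sum of the markers, over the 24 libraries, was 0.80 for fibroblasts, 0.79 for macrophages and monocytes, -0.01 for endothelium, -0.78 for ventricular muscle and -0.81 for pericytes and smooth muscle. These are descriptions, since the same groups and depths lie behind both measures.

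**Figure D5:**
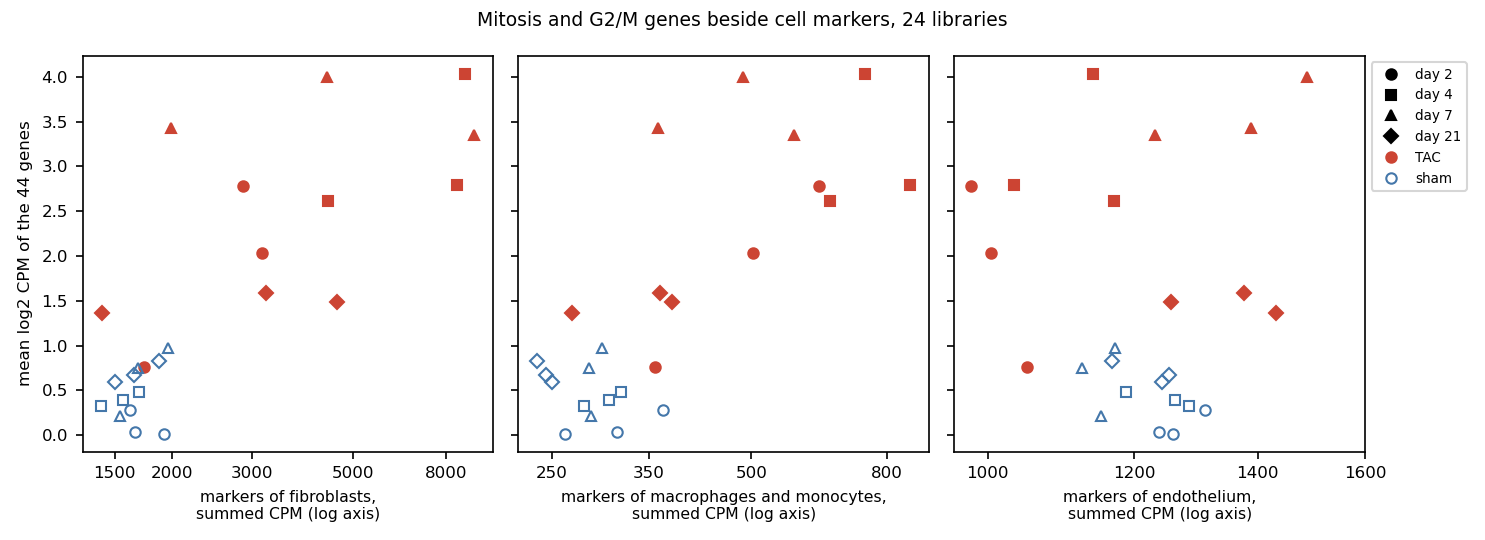
Mean log2 CPM of the 44 genes against the summed CPM of fibroblast, macrophage and endothelial markers (log axis), one point per library, open blue for sham and filled red for TAC, marker shape for the day. The TAC libraries of days 4 and 7 all lie above every sham library, including a TAC library of day 7 at 1991 CPM of fibroblast markers, and those of day 21 lie between.

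Some members share exons with neighbours, and no source at hand says whether the counting used strand. By the GENCODE annotation the neighbour on the opposite strand covers 31.8% of the exon bases of Kif20a (Cdc23), 22.8% of Ube2c (Tnnc2), 21.8% of Prc1 (Rccd1), 15.1% of Kif4 (Pdzd11), 10.4% of Ccna2 (Exosc9) and 9.2% of Nek2 (Gm38037), so that reads of the neighbours may count for these members.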

How the data were processed

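Left ventricle RNA, prepared with a NuGEN Ovation kit and sequenced on an Illumina NextSeq500 per the labels' protocols, was deposited by the authors as a table of read counts per gene and a table of RPKM. TopHat and DESeq are named, without versions, in the submitters' processing notes. The build they name, hg19, is human. Which mouse build was used is not stated in the sources at hand. The deposited RPKM appear to rest on another counting than the read counts, since their folds differ for some genes. No column of either table was without a sample (0).

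Counts were tested with edgeR 4.0.16 (R 4.3.3): filterByExpr left 13816 genes, with TMM scaling, 8 group means in one quasi-likelihood fit of all 24 libraries (16 residual degrees of freedom) and Benjamini-Hochberg adjustment over all genes tested. The fit was tested on simulated counts, with the same spread for every gene and the same effect in every TAC library. That test cannot show how the calls hold where the TAC libraries of a day differ widely. Pearson correlations used log2 CPM with a prior count of 2. Alternatives were DESeq2 1.42.0 and its size factors, limma 3.58.1 (voom, and trend on log2(RPKM + 0.1) for genes of mean RPKM of at least 0.1), no filter or a stricter one (20 reads in 3 libraries), a replicate block, each library left out, the libraries of 1 day alone, and the libraries over 30 CPM of Myl7 left out. The decrease from day 7 to day 21 was added after seeing the data.

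Depth was 10.7 to 17.6 M reads. Replicates differed beyond sampling noise (chi-square per degree of freedom 3.52 to 58.9), so that none was a copy. All members may be named. Values per library are given for 12 of them, at least 1 for each role, for the 3 with the largest and the 3 with the smallest effect at a day and for any that ran against the rest. Of the other mitotic genes, the 3 with the smallest p at each day and all that fell are named, except 1 that is not reported here, and of all further genes the 5 most like the mean of the members. Members and lists were chosen with earlier results of these data known. Exon overlaps were read from the GENCODE M21 annotation and promoters from RefSeq.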

Additional observations from a re-analysis of the deposited data

How the results depend on the processing

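The counts of members higher at days 4 and 7 stayed at 43 under every alternative run, except at day 4 without a library of that day (40 without TAC replicate 3, 42 without sham replicate 1 and 42 without sham replicate 2). At day 2, 33 members became 1 with limma voom, 14 on RPKM, 0 with the libraries of the day alone and 0 to 43 with 1 library left out. Without the libraries high in Myl7 only sham replicate 1 was left at day 2, so that the calls of that fit are not given. The other mitotic genes, 22 at day 2, became 0 with voom, 4 on RPKM, 0 with the day alone and 0 to 40 with 1 library left out. With 1 library left out they were 45 to 62 at day 4, 50 to 62 at day 7 and 0 to 3 at day 21, and the members 43 to 43 at day 7 and 0 to 1 at day 21. At day 21, DESeq2 called 2 members and 2 other mitotic genes higher, and the day alone 1 and 1. For the other mitotic genes edgeR called 1 without a filter. DESeq2 called 6 members smaller at day 21 than at day 4, 9 smaller than at day 7 and 9 that differed over the days. In the main fit edgeR called 0 in each of these comparisons, and without a filter 1 that differed over the days. With 1 library left out the edgeR counts, in the same order, were 0 to 0, 0 to 5 and 0 to 3. Larger effects at day 4 than day 2, at day 7 than day 4 and at day 21 than day 7, and differences among sham days, were 0 to 0. Reversed effects were those of Cenpf at day 2 (0.55 without the libraries high in Myl7, 0.19 without sham replicate 3, 0.16 without TAC replicate 2, -0.78 to 0.19 over all libraries left out), Kif23 at day 21 (-0.15 without sham replicate 3, -0.21 without TAC replicate 1, range -0.21 to 0.18) and Melk at day 21 (-0.22 without TAC replicate 3, range -0.22 to 0.31). The cause was not tested. Same-numbered replicates did not deviate together (correlations -0.15 to 0.14, with 3 of 12 best with their own number). With the replicate block 33, 43, 43 and 0 members were called at days 2, 4, 7 and 21, 2 other mitotic genes at day 21, and 1 member that differed over the days. Few reads per library limit Nek2, Kif2c, Aurkb and Ttk, the 4 members with 0 reads in at least 1 sham library.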
